A study of Mus musculus with 35 samples.

Results

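The comparison reported here set OT-I cytotoxic T lymphocytes (CTLs) kept for 24 h in medium of pH 6.6 with IL-2 against CTLs kept for 24 h in medium of pH 7.4 from which IL-2 was left out. Libraries were taken by their titles, 5 of acid with cytokine (pH 6.6 with IL-2) and 5 of neutral withdrawal (pH 7.4 without IL-2), which made 10 of the 35 libraries of the series, and libraries with the same replicate number (1 to 5) were treated as a pair. The cells came from OT-I mice, a strain in which most CD8+ T cells recognize 1 peptide of chicken egg albumin through an inserted receptor. Their CD8+ T cells were primed with antibodies to CD3 and CD28, expanded with IL-2, and then divided over the conditions, in low-glucose DMEM with serum. All 35 libraries came from such cells. Acidified wells with cytokine held 200 IU/mL IL-2. The labels of the libraries without cytokine name only the pH. The other 5 groups, of 5 libraries each, were cells at 0 h and cells kept for 24 h either with cytokine in medium of pH 7.4, at pH 7 with or without it, or at pH 6.6 without it. The age of the mice is not given in the sources used here. The 2 groups differed in both pH and IL-2, so the comparison asked how cells that have cytokine in acid differ from cells that have simply lost it, and a difference cannot be given to either factor from these 10 libraries alone. Dead cells were removed on Ficoll before RNA extraction, so each library described the cells that remained after 24 h.

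IL-2 binds a receptor of α, β and common γ chains, and the kinases JAK1 and JAK3 then activate the transcription factor STAT5. Through STAT5, mTORC1 and c-Myc the cytokine keeps effector CD8+ T cells large, dividing and cytolytic. When it is withdrawn, such cells shrink, leave the cell cycle and regain genes of resting or memory-type T cells, among them the IL-7 receptor. Extracellular acid is sensed by G protein-coupled proton receptors, some of which raise cAMP, and it also changes the ion and lactate fluxes of the cell.

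Total counts on genes were 16721319 to 25622491 per library at pH 6.6 with IL-2, with replicate 1 the lowest, and 21982865 to 28681772 at pH 7.4 without IL-2. The cells carried the markers of CD8+ T cells in both groups. The 12 markers on that list summed to 6816 to 7597 CPM, that is read counts scaled to a common library total with TMM factors, at pH 6.6 with IL-2 and 6646 to 7849.8 CPM at pH 7.4 without IL-2, whereas 8 B-cell markers summed to at most 1.93 and 2.03 CPM and 7 erythroid markers to at most 0.167 and 0.128 CPM. The 9 dendritic-cell markers summed to 25.4 to 42.9 against 14.7 to 21.8 CPM and the 11 myeloid markers to 16.7 to 31.5 against 10.6 to 19.7 CPM. Within those lists the dendritic-cell genes Siglech, Clec9a and Cd209a and 5 myeloid genes, among them Csf1r and S100a8, were at 0 in every library of each group. The 7 NK and γδ T-cell markers summed to 597 to 893 against 770.1 to 1013 CPM, and the 5 CD4 and regulatory T-cell markers to 350.5 to 538 against 302 to 436 CPM. The largest members of these lists were Trdc (median 646 against 711 CPM) and Ctla4 (median 339 against 368 CPM). Cd4 had a median of 0.759 against 0 CPM and Foxp3 one of 0.346 against 0.667 CPM. Among the myeloid markers Cd68 was the largest, at a median of 25.1 against 16.4 CPM, while Itgam was at 0.452 against 2.07 CPM. Zbtb46, a dendritic-cell transcription factor picked here after its values were seen, was at 12.6, 23.3, 20.3, 14.8 and 13.5 CPM against 2.23, 2.16, 1.397, 3.46 and 2.18 CPM (log2 fold change 2.89 ± 0.22, edgeR adjusted p = 6.85e-13). Flt3, another dendritic-cell marker, had a median of 0.0799 CPM against 1.86 CPM. The part that other cells play in the results was not tested. In RNA from bulk cultures, fewer cells that express a gene and less RNA of it per cell cannot be told apart.

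Acid-treated CTLs with cytokine and neutral CTLs without it had widely different transcriptomes. Of 13819 genes tested in edgeR's quasi-likelihood model, blocked on replicate number and with Benjamini-Hochberg adjustment, 8906 passed an adjusted p-value of 0.05 (64.4%). At pH 6.6 with IL-2, 4197 genes were higher (30.4%) and 4709 were lower (34.1%). Most differences were moderate. Of the genes that passed, 1089 were higher and 1575 lower by at least 1 on the log2 scale, and the median log2 fold change over all genes was -0.02. The CPM of the 2 groups did not overlap at 6042 genes (43.7%). For 4391 genes the 95% interval of the log2 fold change, not adjusted for the number of genes, lay within ±0.5, and 3078 of these did not pass the test. Log2 fold changes below are pH 6.6 with IL-2 relative to pH 7.4 without IL-2 (n = 5 pairs). Their standard errors (±) and 95% intervals come from the model fitted to all 35 libraries and are not the spread of the 5 pairs. Adjusted p-values are those of edgeR over all genes. The 38 gene lists held 953 entries, of which 923 passed the filter on low counts, and counts of rises and falls are over those. Counts of each list stand against 30.4% higher and 34.1% lower of all genes tested, and medians of lists against the median of -0.02 over all genes.

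**Figure D1:**
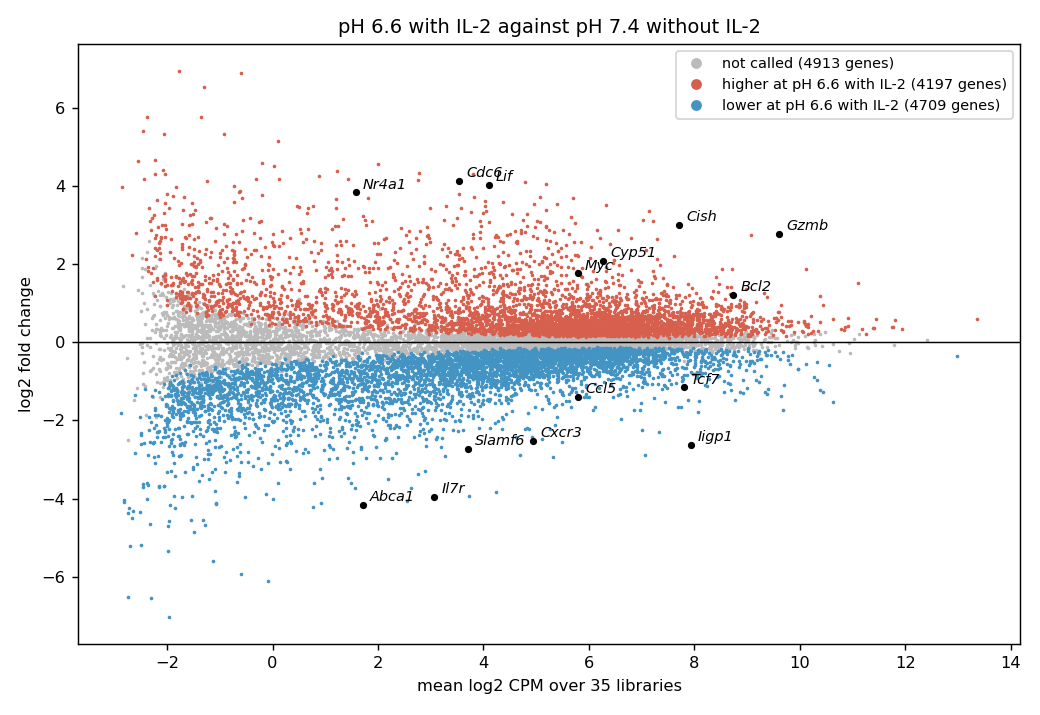
Log2 fold change (vertical axis, pH 6.6 with IL-2 relative to pH 7.4 without IL-2) against mean log2 CPM over 35 libraries (horizontal axis), 1 point per gene. The 4197 genes that were higher are red, the 4709 that were lower blue and the 4913 that did not pass grey, with examples such as Cish, Cdc6 and Lif at the top and Il7r and Abca1 at the bottom.

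To place each gene, 2 comparisons that use none of these 10 libraries were taken from the same model. The acid step compared pH 6.6 with pH 7 without IL-2, and called 4268 genes higher (30.9%) and 4937 lower (35.7%) at pH 6.6. The cytokine step compared IL-2 with no IL-2 at pH 7, and called 5202 genes higher (37.6%) and 5465 lower (39.5%) with IL-2. These steps share the 5 libraries at pH 7 without IL-2 with each other, so they are set side by side below and not against each other.

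STAT5 target genes were higher in acid with IL-2 than in neutral medium without it. Of the 26 on the list, 25 rose and none fell (96.2% higher, against 30.4% of all genes tested). The median log2 fold change was 1.09, from 1.02 to 1.26 over the 5 pairs. In the acid step, which has no cytokine, 17 of the 26 rose and 6 fell (median 0.53). In the cytokine step 20 rose and 3 fell (median 1.68). Cish, a negative regulator of cytokine signaling (chromosome 9, 107296026 to 107302784, GRCm38), was at 357, 355, 305, 519 and 472 CPM in replicates 1 to 5 at pH 6.6 with IL-2. At pH 7.4 without IL-2 it was at 49.9, 38.2, 35.4, 55.7 and 70.03 CPM, so that these 2 groups did not overlap. The log2 fold change was 3.01 ± 0.18 (adjusted p = 7.49e-15), or 8.05-fold. Cish differed by 0.69 in the acid step and 3.07 in the cytokine step. The level at pH 6.6 with IL-2 was 402 ± 89.7 CPM (SD, n = 5), beside 548 ± 66.1 CPM at pH 7 with IL-2, 108 ± 24.8 CPM at pH 6.6 without IL-2 and 596 ± 104 CPM at 0 h. 

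Osm, which encodes the cytokine oncostatin M, was at 41.4, 41.2, 36.6, 65.8 and 57.8 CPM against 6.95, 8.09, 8.09, 6.34 and 8.86 CPM, a log2 fold change of 2.66 ± 0.14 (adjusted p = 1.11e-16). Pim1, a survival kinase, was at 242, 355, 327, 303 and 307 CPM against 118, 127, 127, 145 and 147 CPM, a log2 fold change of 1.21 ± 0.08 (adjusted p = 1.43e-14). Neither gene had overlapping groups. Pim1 also differed in each step alone, by 1.33 in the acid step and 0.52 in the cytokine step, whereas Osm differed by 0.63 and 3.48. Socs1, which blocks JAK kinases, was at 38.1, 33.02, 30.03, 39.7 and 40.4 CPM against 23.2, 21.8, 18.3, 14.5 and 15.5 CPM, a log2 fold change of 0.97 ± 0.17 (adjusted p = 7.32e-06). It fell in the acid step (log2 fold change -0.64, adjusted p = 0.00199) and rose in the cytokine step (2.46, adjusted p = 2.11e-14). Socs3, a related inhibitor, was at 40.4, 48.7, 48.4, 111 and 82.7 CPM against 31.5, 23.1, 22.1, 20.6 and 26.1 CPM, a log2 fold change of 1.37 ± 0.19 (adjusted p = 2.75e-07). The 2 highest Socs3 values were those of replicates 4 and 5 at pH 6.6 with IL-2. Pim2 was the least certain of the named targets. Its groups overlapped, its log2 fold change was 0.32 ± 0.13 (adjusted p = 0.0364), and without replicate 1 or without replicate 4 the adjusted p-value was 0.192 or 0.176.

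The promoter of Socs3 is shown because it holds the palindrome that STAT dimers bind, TTCNNNGAA, in capitals. The sequence is that of RefSeq on GRCm38.p6, chr11:117969367-117969616, minus strand, the 250 bases before the start, 5′ to 3′.
Socs3: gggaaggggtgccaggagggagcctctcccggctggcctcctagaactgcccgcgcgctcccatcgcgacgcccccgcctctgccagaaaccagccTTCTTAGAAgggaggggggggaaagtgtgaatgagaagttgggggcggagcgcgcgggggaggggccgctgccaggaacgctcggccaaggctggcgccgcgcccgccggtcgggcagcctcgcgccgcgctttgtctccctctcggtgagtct
Of the 26 STAT5 targets, 18 were matched by symbol to a RefSeq promoter, and 4 of these held the palindrome on either strand in the 250 bases before the start (22.2%), against 711 of 9977 tested genes with a promoter (7.13%) and 8.13% of all 27025 genes with one. The palindrome was as frequent in the interferon-stimulated genes described further on, a list that fell (6 of 26, 23.1%), and it was in 6.61% of all genes that rose and 7.55% of those that fell. A match is a description of the letters and not a binding site.

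Of 10 genes for receptor chains, JAKs and STAT5, 4 rose and 1 fell, and without replicate 4 the rises were 2, counts close to the 30.4% higher over all genes tested. Il2ra, the inducible α chain, was at 387, 350.3, 394, 334 and 342 CPM against 216, 191, 176, 191 and 146 CPM, a log2 fold change of 0.98 ± 0.11 (adjusted p = 1.63e-09). For the β chain gene Il2rb, the groups overlapped and the log2 fold change was -0.07 ± 0.10, with a 95% interval of -0.27 to 0.12. Il2rg, the common γ chain, had a log2 fold change of 0.17 ± 0.08 (adjusted p = 0.0441), and of the 50-base windows of its transcripts 72.5% were found in no other gene, so that reads could be shared with other genes. Without replicate 1, 3, 4 or 5 the adjusted p-value of Il2rg was 0.0980, 0.113, 0.0871 or 0.0521. Jak3, which pairs with the γ chain, rose by 0.68 ± 0.13 and Jak1 fell by 0.59 ± 0.07 on the log2 scale (adjusted p = 4.92e-05 and 2.49e-09).

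Gzmb and Prf1 were higher than after withdrawal, while the cytotoxic and effector genes as a list went both ways. Gzmb, which encodes granzyme B (chromosome 14, 56258838 to 56262260), was at 976, 529, 482, 1215 and 1022 CPM at pH 6.6 with IL-2 and at 101, 135, 60.4, 202 and 123 CPM at pH 7.4 without it. Every library at pH 6.6 with IL-2 was above every one at pH 7.4 without it. The log2 fold change was 2.78 ± 0.18 (adjusted p = 1.01e-14). The mean was 5692 ± 846 CPM at pH 7 with IL-2, 7958 ± 1061 CPM at 0 h and 86.5 ± 16.9 CPM at pH 6.6 without IL-2. Prf1, the pore-forming protein perforin, was at 79.7, 73.5, 43.5, 155 and 111 CPM against 16.5, 40.95, 19.5, 36.5 and 29.8 CPM, a log2 fold change of 1.68 ± 0.17 (adjusted p = 3.77e-10), with a mean of 277 ± 92.1 CPM at pH 7 with IL-2. Of 24 cytotoxic and effector genes, 13 rose and 7 fell, against 30.4% higher and 34.1% lower of all genes tested. Serpinb6b, a protease inhibitor, rose by 2.36 ± 0.16 (adjusted p = 5e-14), with 2.88 in the acid step and -0.39 in the cytokine step. The chemokine gene Ccl5 was lower, at 62.7, 72, 88.5, 63.8 and 59.6 CPM against 190.3, 228, 177, 170.5 and 141 CPM (log2 fold change -1.39 ± 0.11, adjusted p = 2.51e-12). Xcl1, another chemokine gene, was at 7.68, 3.32, 3.398, 2.097 and 2.37 CPM against 22.1, 24.4, 12.7, 22.4 and 10.2 CPM (log2 fold change -2.43 ± 0.27, adjusted p = 5.61e-09). Ifng was low in both groups, at 2.14, 2.599, 1.97, 9.09 and 4.66 CPM against 5.91, 9.62, 2.96, 13.3 and 4.15 CPM. Its log2 fold change was -0.83 ± 0.27 (adjusted p = 0.00881), and without replicate 1 or 2 the adjusted p-value was 0.0601 or 0.103. Of the windows of Ifng 80.1% were found in no other gene.

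**Figure D2:**
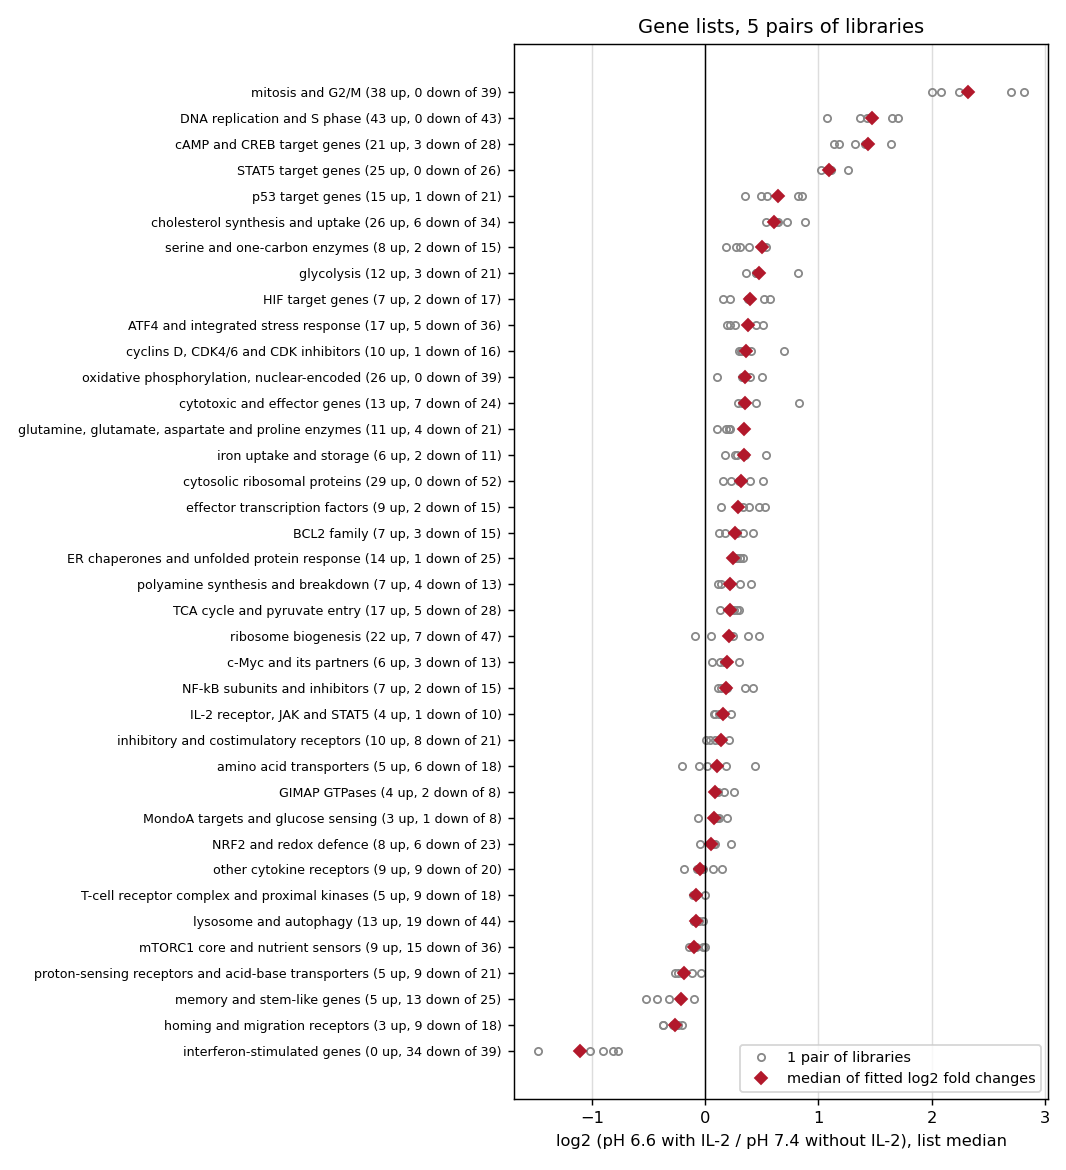
Median log2 fold change of each of 38 gene lists, pH 6.6 with IL-2 relative to pH 7.4 without IL-2 (horizontal axis). Open circles are the 5 pairs of libraries and diamonds the medians of the fitted values, with the genes that passed the test counted beside each list name. Mitosis, S phase, cAMP and CREB target and STAT5 target genes lay above 1 and interferon-stimulated genes below -1.

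Cell cycle genes gave most of the largest rises. All 43 genes of DNA replication and S phase were higher at pH 6.6 with IL-2 (median log2 fold change 1.48, 1.08 to 1.71 over pairs), as were 38 of 39 genes of mitosis and G2/M (median 2.32, 2.01 to 2.82), with none lower. Of the 12 largest rises among genes whose mean log2 CPM over all libraries reached 3, 7 (Pbk, Cdc6, Kntc1, Uhrf1, Mcm10, Pclaf and E2f8) act in replication or mitosis. Cdc6, which loads the replicative helicase (chromosome 11, 98907801 to 98923940), was at 11.4, 14.9, 14.6, 17.3 and 22.2 CPM against 1.07, 0.707, 1.27, 0.542 and 0.984 CPM. Pbk, a mitotic kinase, was at 16.5, 18.8, 25.9, 19.4 and 19.3 CPM against 1.52, 1.14, 1.48, 0.501 and 0.2996 CPM. Uhrf1, which maintains DNA methylation behind the replication fork, was at 38.7, 47.6, 43.3, 58.3 and 59.8 CPM against 3.36, 2.87, 3.26, 2.796 and 3.04 CPM. The groups of these 3 genes were far apart, and the log2 fold changes were 4.13 ± 0.22, 4.32 ± 0.35 and 4.04 ± 0.21 (adjusted p = 2.46e-16, 7.5e-12 and 2.86e-16). Kntc1, a kinetochore protein, rose by 4.10 ± 0.24, the helicase factor Mcm10 by 3.73 ± 0.20, the PCNA partner Pclaf by 3.69 ± 0.22 and the repressor E2f8 by 3.62 ± 0.26. Among mitotic genes, the checkpoint kinase Bub1 rose by 3.39 ± 0.25 and the spindle motor Kif11 by 3.36 ± 0.20. Mki67, the proliferation marker, was at 338, 406, 458, 318 and 360.4 CPM against 106, 133, 143, 77.7 and 64.4 CPM, a log2 fold change of 1.88 ± 0.19 (adjusted p = 4.04e-10).

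The mean log2 CPM of the S phase genes was 5.27 ± 0.21 at pH 6.6 with IL-2, 3.61 ± 0.05 at pH 7.4 without IL-2, 4.66 ± 0.24 at pH 6.6 without IL-2, beside 7.14 ± 0.06 at pH 7 with IL-2 (SD, n = 5 libraries). For the mitotic genes the means of the same groups, in that order, were 5.98 ± 0.20, 3.70 ± 0.46, 5.78 ± 0.34 and 7.35 ± 0.18. The levels at pH 6.6 with IL-2 thus lay between those at pH 7.4 without IL-2 and those at pH 7 with IL-2. In the acid step, which has no cytokine, 37 of the 43 S phase genes rose and 1 fell, and 37 of the 39 mitotic genes rose. The E2F site TTTGGCGC was found on either strand in the 250 bases before the RefSeq start of 4 of the 35 S phase genes with a promoter (11.4%) and in 0.992% of the 9977 tested genes with one.

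Both cyclin genes and an inhibitor gene of G1 were higher. Of 16 genes for D cyclins, CDK4, CDK6 and CDK inhibitors, 10 rose and 1 fell (median log2 fold change 0.36), the fall not being called without replicate 4 or without the replicate block. Ccnd2, which encodes the cyclin D2 that opens G1, was at 404, 365, 387, 494 and 474 CPM against 184, 222, 249, 267 and 225 CPM (log2 fold change 0.90 ± 0.10, adjusted p = 4.86e-09). Ccnd3 rose by 1.20 ± 0.12. Cdkn1a, which encodes the CDK inhibitor p21, was also higher, at 207, 438, 375, 486 and 473 CPM against 94.8, 120.0, 110.3, 189.6 and 199 CPM (log2 fold change 1.49 ± 0.14, adjusted p = 8.9e-11). Cdkn1b, the inhibitor p27 of resting lymphocytes, was at 534, 601, 697, 369 and 409.9 CPM against 580.0, 525, 665, 622 and 498 CPM. The Cdkn1b groups overlapped, with a log2 fold change of -0.15 ± 0.18 and a 95% interval of -0.51 to 0.21, while its mean at pH 7 with IL-2 was 111 ± 19.5 CPM. In the cytokine step Cdkn1b fell by 2.30 on the log2 scale (adjusted p = 1.12e-12).

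c-Myc and several genes of growth were higher. Myc, the transcription factor that drives ribosome and metabolic genes in activated T cells, was at 71.8, 45.9, 46.9, 55.6 and 53.9 CPM against 17.2, 14.6, 14.7, 13.1 and 21.7 CPM. Its groups did not overlap and its log2 fold change was 1.76 ± 0.12 (adjusted p = 3.58e-14), with a mean of 123 ± 13.8 CPM at pH 7 with IL-2. Mycn, its relative, rose by 2.08 ± 0.13, from 1.96 ± 0.477 CPM to 8.304 ± 1.96 CPM. Srm, the spermidine synthase, was at 17.1, 7.96, 6.42, 18.4 and 15.6 CPM against 4.43, 3.97, 3.60, 3.63 and 4.32 CPM (log2 fold change 1.68 ± 0.19, adjusted p = 2.89e-09). Odc1, which starts polyamine synthesis, rose by 1.40 ± 0.11 (adjusted p = 1.02e-12), and 75.7% of its windows were found in no other gene. Hk2, the inducible hexokinase, was at 27.6, 15.2, 11.8, 28 and 27.1 CPM against 8.05, 4.52, 4.02, 6.13 and 6.81 CPM (log2 fold change 1.86 ± 0.25, adjusted p = 1.38e-07). For Srm and Hk2 replicates 2 and 3 were the lowest acid libraries, still above each neutral library, and the means at pH 7 with IL-2 were 97.1 and 123 CPM. Of 13 genes for c-Myc and its partners 6 rose and 3 fell, of 13 polyamine genes 7 rose and 4 fell, and of 21 glycolysis genes 12 rose and 3 fell (median log2 fold change 0.48). These counts stand against 30.4% higher and 34.1% lower of all genes tested.

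Ribosome biogenesis genes went both ways. Of 47 tested, 22 rose and 7 fell, against 30.4% higher and 34.1% lower of all genes tested. The median log2 fold change was 0.21, from -0.09 to 0.47 over pairs, which includes both signs. In the steps, 23 of these genes fell and 9 rose in the acid step (median -0.26), whereas 46 of 47 rose in the cytokine step (median 1.90). Bysl, a factor of the small subunit, was at 14.6, 6.796, 7.76, 12.1 and 12.5 CPM against 4.52, 4.04, 3.98, 4.71 and 4.75 CPM (log2 fold change 1.27 ± 0.17). Rrp1b rose by 1.12 ± 0.10. Wdr12, which matures the large subunit, was lower in 5 of 5 pairs, at 18.1, 10.2, 11.7, 15.3 and 14.9 CPM against 31.9, 36.8, 39.6, 32.6 and 32.96 CPM (log2 fold change -1.33 ± 0.12, adjusted p = 1.45e-11). Imp4 fell by 0.52 ± 0.09. Of 52 cytosolic ribosomal protein genes 29 rose and none fell (median 0.31). The rises were 23 without replicate 3 and 40 with only the 2 groups fitted. Of 39 nuclear genes of oxidative phosphorylation 26 rose and none fell (median 0.35). Because reads that matched several places were not counted, ribosomal protein genes, which have many near-identical copies, are less certain.

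Genes of amino acid supply also went both ways. List counts in this paragraph stand against 30.4% higher and 34.1% lower of all genes tested. Of 18 amino acid transporters 5 rose and 6 fell, close to these shares. Their median log2 fold change was 0.10, and it was -0.01 without replicate 2 and 0.02 without replicate 4. Slc3a2, the shared heavy chain, was at 191, 239, 215, 187 and 201 CPM against 96.8, 87.5, 75.2, 78.8 and 93.9 CPM (log2 fold change 1.27 ± 0.09, adjusted p = 3.01e-13). Slc7a5, the leucine transporter it carries to the surface, was at 60.8, 24.8, 22.7, 35.6 and 33.6 CPM against 26.7, 15.8, 14.4, 15.1 and 19.6 CPM (log2 fold change 0.92 ± 0.16, adjusted p = 5.84e-06). Slc7a5 was higher in 5 of 5 pairs although the groups overlapped, because replicate 1 was the highest library on both sides. Psat1, of serine synthesis, rose by 1.58 ± 0.08 and Mthfd1, of folate metabolism, by 1.11 ± 0.15, among 15 serine and one-carbon genes of which 8 rose and 2 fell (median 0.50, 0.27 without replicate 2). Tfrc, the transferrin receptor, was at 129.9, 94.99, 101, 112 and 119 CPM against 48.01, 52.2, 67.04, 48.4 and 43.1 CPM (log2 fold change 1.11 ± 0.13, adjusted p = 5.66e-09). Asns, the asparagine synthetase, had a log2 fold change of 0.13 ± 0.13 with a 95% interval of -0.13 to 0.38, and Slc2a1, the glucose transporter GLUT1, had one of -0.19 ± 0.25 with an interval of -0.70 to 0.32. The groups of Asns and Slc2a1 overlapped, and both genes were higher in the cytokine step, by 2.004 and 1.38. Of 36 ATF4 and stress-response genes 17 rose and 5 fell, or 3 without replicate 3, and Atf4 itself rose by 0.65 ± 0.08 (adjusted p = 6.36e-09). The chaperone gene Hspa5 rose by 1.27 ± 0.09 with 14 of 25 genes of the endoplasmic reticulum list, of which 1 fell. Of 36 genes of mTORC1 and nutrient sensing 9 rose and 15 fell (median -0.10), and Ddit4, which encodes the mTORC1 inhibitor REDD1, was among those that rose (1.11 ± 0.19, adjusted p = 9.34e-06).

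Genes of sterol synthesis and uptake were higher, and the sterol exporter was lower. Of 34 genes on the list of cholesterol synthesis and uptake 26 rose and 6 fell (median log2 fold change 0.61, 0.54 to 0.88 over pairs). The list also holds Abca1 and Mylip, described below, and Abcg1 (log2 fold change -0.82), all among the 6 that fell. Cyp51, an enzyme of the later pathway, was at 79.3, 62.2, 65.7, 76.97 and 80.1 CPM against 18.4, 18.7, 15.9, 18.02 and 14.5 CPM, and its log2 fold change was 2.09 ± 0.14 (adjusted p = 1.92e-14). Hmgcs1, an enzyme of its first steps, was at 199, 191, 184, 202 and 193 CPM against 69.4, 71.4, 72.3, 71.1 and 64.2 CPM (log2 fold change 1.48 ± 0.12, adjusted p = 5.34e-12). The groups of both genes were well apart. Abca1, which exports cholesterol and is a target of the sterol sensor LXR, was at 1.098, 2.04, 0.965, 1.77 and 1.67 CPM against 32.6, 28.04, 22.3, 30.4 and 24.01 CPM. With a log2 fold change of -4.16 ± 0.19 (adjusted p = 4.86e-18), Abca1 was 17.9-fold lower, with no overlap. Its mean log2 CPM over all libraries was below the minimum of 3 set for the largest falls. Mylip, also an LXR target, fell by 1.19 ± 0.09 (adjusted p = 2.03e-13). Abca1 differed by -2.93 in the acid step and -4.40 in the cytokine step, and Cyp51 by 1.00 and 3.81.

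cAMP and CREB target genes, which immediate-early and G protein signals induce, were higher than after withdrawal. Of 28 tested, 21 rose and 3 fell (median log2 fold change 1.44, 1.14 to 1.64 over pairs). The mean log2 CPM of the list was 5.54 ± 0.29 at pH 6.6 with IL-2, 4.25 ± 0.34 at pH 7.4 without IL-2, 5.15 ± 0.29 at pH 6.6 without IL-2, beside 5.00 ± 0.20 at pH 7 with IL-2 (SD, n = 5). The highest of these means was that of acid with cytokine. Nr4a1, an orphan nuclear receptor of the immediate-early response (chromosome 15, 101254269 to 101274795), was at 7.92, 22.99, 17.1, 17.8 and 17.4 CPM against 1.42, 0.825, 0.932, 1.04 and 1.37 CPM. Replicate 1 was the lowest library at pH 6.6 with IL-2 and still above every library at pH 7.4 without IL-2. The log2 fold change was 3.83 ± 0.28 (adjusted p = 2.68e-13). Nr4a1 rose in the acid step by 3.96 (adjusted p = 1.19e-13), and its log2 fold change in the cytokine step was 0.45 (adjusted p = 0.189). Fosl2, an AP-1 subunit, was at 314, 615, 523, 408 and 463 CPM against 46.3, 56.2, 49.1, 55.6 and 59.5 CPM (log2 fold change 3.11 ± 0.10, adjusted p = 1.69e-21). Dusp4, a MAP kinase phosphatase, was at 18.1, 33.6, 25.3, 30.8 and 31.8 CPM against 1.45, 2.47, 1.02, 2.503 and 2.61 CPM (log2 fold change 3.79 ± 0.23, adjusted p = 7.37e-15). Dusp4 differed by 3.58 in the acid step and 3.34 in the cytokine step. Crem, which encodes the cAMP-inducible repressor, and the clock gene Per1 rose by 1.66 ± 0.12 and 1.52 ± 0.17 (adjusted p = 1.61e-13 and 4.59e-09). Against the list, Rgs16, which limits G protein signaling, fell by 0.70 ± 0.10 (adjusted p = 2.15e-07, 0.0599 without the replicate block) and the phosphodiesterase gene Pde3b by 0.32 ± 0.10 (adjusted p = 0.00749, 0.0675 without replicate 4). The list name is no measure of cAMP or CREB activity, which was not tested. For protein under acidic conditions, the study reported neither phosphorylation of CREB and CREM nor their accumulation.

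The promoter of Nr4a1 is shown with the half-site of the cAMP response element, TGACG or its reverse complement, in capitals. The sequence is that of RefSeq on GRCm38.p6, chr15:101266596-101266845, plus strand, the 250 bases before one annotated start.
Nr4a1: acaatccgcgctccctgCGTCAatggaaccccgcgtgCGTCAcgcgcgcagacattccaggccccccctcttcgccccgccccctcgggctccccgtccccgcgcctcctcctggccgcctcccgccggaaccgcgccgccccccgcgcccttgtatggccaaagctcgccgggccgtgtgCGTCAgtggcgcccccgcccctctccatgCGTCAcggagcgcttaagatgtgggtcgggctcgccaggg
It held 4 half-sites. Among the 19 listed and tested cAMP targets matched to a promoter, 14 had at least 1 (73.7%), against 3083 of 9977 tested genes (30.9%) and 19.8% of all genes with a promoter, a common match for a motif of 5 bases. The full element TGACGTCA, which contains the half-site on both strands, was found in 1 of the 19 (5.26%) and in 3.11% of tested genes.

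Several genes of NF-kB feedback, of the p53 response and of cell death were also higher. Tnfaip3, the NF-kB inhibitor A20, was at 533, 792, 677, 538 and 594 CPM against 177, 227, 219.9, 242 and 260.5 CPM (log2 fold change 1.48 ± 0.14, adjusted p = 1.72e-10). Nfkbiz, a nuclear IκB protein, rose by 1.93 ± 0.20, and of the 15 NF-kB subunits and inhibitors 7 rose and 2 fell. Of 21 p53 targets 15 rose and 1 fell (median 0.64), and Plk2, a kinase of the p53 response, was at 18.1, 38.02, 36.2, 48.1 and 49.2 CPM against 3.17, 5.77, 5.08, 11.1 and 12.1 CPM (log2 fold change 2.42 ± 0.19, adjusted p = 8.24e-13). All 3 rose in the acid step, Tnfaip3 by 1.84, Nfkbiz by 1.91 and Plk2 by 2.67. In the cytokine step Tnfaip3 fell by 1.94 on the log2 scale. In the BCL2 family, 7 of 15 genes rose and 3 fell, the falls being 1 without replicate 2, and survival as well as death genes were among those that rose. Counts of the NF-kB, p53 and BCL2 lists stand against 30.4% higher and 34.1% lower of all genes tested. Bcl2, the survival protein induced by IL-2, was at 789, 452, 529, 498 and 504 CPM against 272, 217, 250.4, 246 and 205 CPM (log2 fold change 1.21 ± 0.10, adjusted p = 1.52e-12). Bcl2l1, which encodes BCL-xL, rose by 1.71 ± 0.09 (adjusted p = 2.87e-17). Bcl2l11, which encodes the killer protein BIM, was at 967, 1204, 1229.7, 785 and 867 CPM against 499, 525, 599, 532 and 529 CPM (log2 fold change 0.89 ± 0.12, adjusted p = 1.64e-07). The same gene was lower in the cytokine step by 1.61 and higher in the acid step by 1.24. Bid, another death gene, fell by 0.59 ± 0.11.

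**Figure D3:**
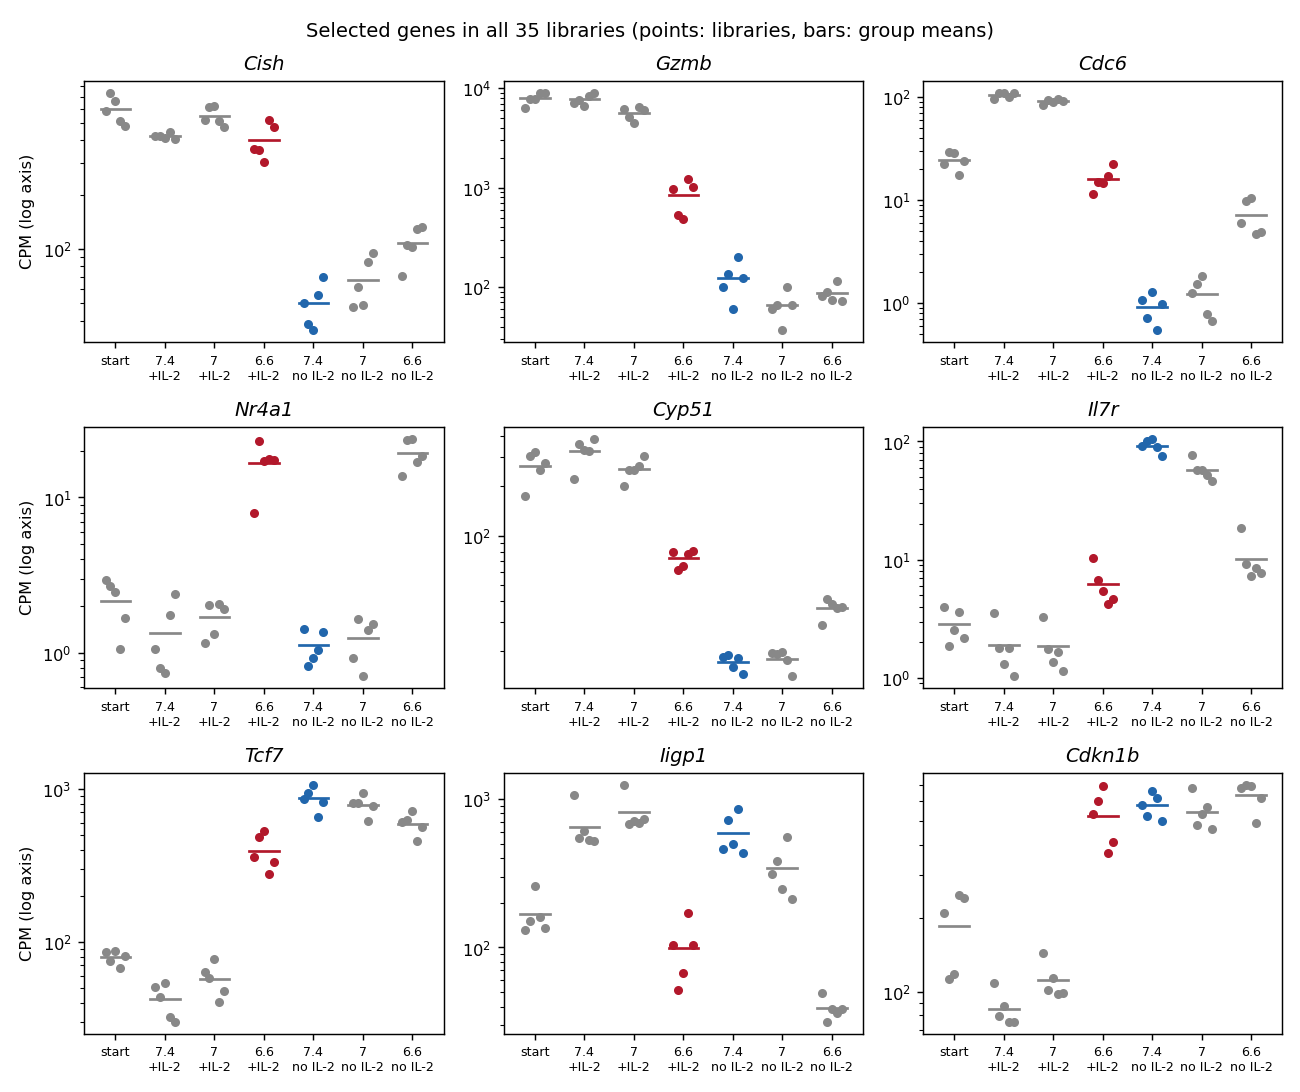
CPM (log axis) of 9 genes in all 35 libraries, by group, with points for libraries and bars for group means. The comparison is red (pH 6.6 with IL-2) against blue (pH 7.4 without IL-2), and the groups overlap only for Cdkn1b.

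Of 25 genes of memory-type and stem-like T cells, 13 fell and 5 rose, against 34.1% lower and 30.4% higher of all genes tested (median log2 fold change -0.21, -0.52 to -0.10 over pairs). Il7r, the α chain of the IL-7 receptor (chromosome 15, 9505788 to 9530176), was at 10.3, 6.796, 5.41, 4.23 and 4.62 CPM against 91.7, 100.1, 106, 89.8 and 74.9 CPM. It was the largest fall among genes whose mean log2 CPM reached 3, with a log2 fold change of -3.96 ± 0.16 (adjusted p = 4.99e-19), or 15.6-fold lower. Slamf6, a surface receptor of stem-like T cells, was at 4.97, 9.55, 14.1, 8.10 and 9.54 CPM against 33.6, 73.8, 83.5, 52.6 and 62.3 CPM (log2 fold change -2.73 ± 0.13, adjusted p = 5.37e-18). Tcf7, which encodes the transcription factor TCF-1, was at 356, 481, 529, 275 and 332 CPM against 857, 932, 1066, 655 and 823 CPM (log2 fold change -1.15 ± 0.09, adjusted p = 7.79e-13). Tcf7 was lower than after withdrawal but far above its mean of 57.3 ± 14.03 CPM at pH 7 with IL-2. Zeb1, a transcriptional repressor on the same list, went the other way and rose by 1.22 ± 0.09 (adjusted p = 6.54e-14), with 1.44 in the acid step.

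Of 18 homing and migration receptors 9 fell and 3 rose, against 34.1% lower and 30.4% higher of all genes tested. Cxcr3, a receptor for interferon-induced chemokines, was at 18.8, 13.8, 13.1, 13.3 and 10.5 CPM against 105, 93.4, 92.6, 53.9 and 62.7 CPM (log2 fold change -2.53 ± 0.12, adjusted p = 4.42e-18). S1pr1, which guides exit from lymph nodes, was at 163, 149, 176, 86.3 and 105 CPM against 190.0, 159.9, 194, 103 and 119.5 CPM. S1pr1 was lower in 5 of 5 pairs, but its groups overlapped and its log2 fold change was -0.17 ± 0.11, with a 95% interval of -0.40 to 0.06. Klf2, the transcription factor of S1pr1, had a log2 fold change of -0.16 ± 0.14 with an interval of -0.46 to 0.13. Both S1pr1 and Klf2 fell in the cytokine step, by 2.74 and 1.91 on the log2 scale. The means of S1pr1 were 136 ± 38.5 CPM in acid with cytokine and 23.8 ± 7.198 CPM at pH 7 with IL-2.

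Interferon-stimulated genes had the largest share of falls among the 38 lists. Of 39 tested, 34 were lower at pH 6.6 with IL-2 and none was higher, although 1 was higher with RLE normalization, with DESeq2, with only the 2 groups fitted or without replicate 2 (median log2 fold change -1.11, -1.47 to -0.77 over pairs). Iigp1, an interferon-inducible GTPase, was at 103, 51.6, 66.99, 170.1 and 104 CPM against 464, 727, 496, 857 and 432 CPM, with no overlap (log2 fold change -2.62 ± 0.28, adjusted p = 2.68e-09). Rtp4, a chaperone induced by interferon, was at 11.3, 6.72, 11.3, 15.8 and 13.6 CPM against 40.5, 62.2, 54.7, 60.9 and 50.4 CPM (log2 fold change -2.21 ± 0.17, adjusted p = 1.78e-12). Outside the list, Ifi213 and Ifit1bl1, members of interferon-inducible families, were among the 12 largest falls, at -2.87 ± 0.13 and -2.46 ± 0.13. Family members of this kind are similar, and 84.4% of the windows of Ifi213 were found in no other gene. In the steps, 35 of the 39 genes fell with acid and none rose (median -0.98), while 29 rose and 2 fell with cytokine (median 0.75). The mean log2 CPM of the list was 4.62 ± 0.22 at pH 6.6 with IL-2, 4.26 ± 0.10 at pH 6.6 without IL-2, 5.79 ± 0.16 at pH 7.4 without IL-2, beside 6.19 ± 0.18 at pH 7 with IL-2. Ifngr2, a chain of the interferon-γ receptor, was higher, at 55.6, 52.4, 58.6, 37.95 and 50.5 CPM against 18.3, 21.3, 24.8, 14.8 and 17.5 CPM (log2 fold change 1.40 ± 0.12, adjusted p = 4.34e-12).

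The promoter of Isg15 is shown because it holds 3 overlapping copies of the core of the interferon-stimulated response element, GAAANNGAAA, in capitals. Isg15, an antiviral ubiquitin-like protein, was chosen for this promoter and not by the naming rule. It was at 1.04, 0.7596, 1.34, 1.44 and 1.08 CPM against 2.23, 3.61, 2.58, 1.96 and 1.97 CPM (log2 fold change -1.13 ± 0.22, adjusted p = 4.44e-05). The sequence is that of RefSeq on GRCm38.p6, chr4:156200819-156201068, minus strand, the 250 bases before the start.
Isg15: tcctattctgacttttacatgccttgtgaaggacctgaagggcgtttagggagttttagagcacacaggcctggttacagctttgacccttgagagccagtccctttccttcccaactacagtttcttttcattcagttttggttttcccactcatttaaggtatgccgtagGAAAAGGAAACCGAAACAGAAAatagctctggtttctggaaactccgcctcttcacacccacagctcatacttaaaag
Of the 39 interferon-stimulated genes, 26 were matched to a promoter and 15 of these held the core on either strand (57.7%), against 332 of 9977 tested genes (3.33%) and 3.46% of all genes with a promoter. Among all genes that fell and had a promoter, 128 of 3445 held it (3.72%), and among all that rose, 100 of 3145 (3.18%).

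**Figure D4:**
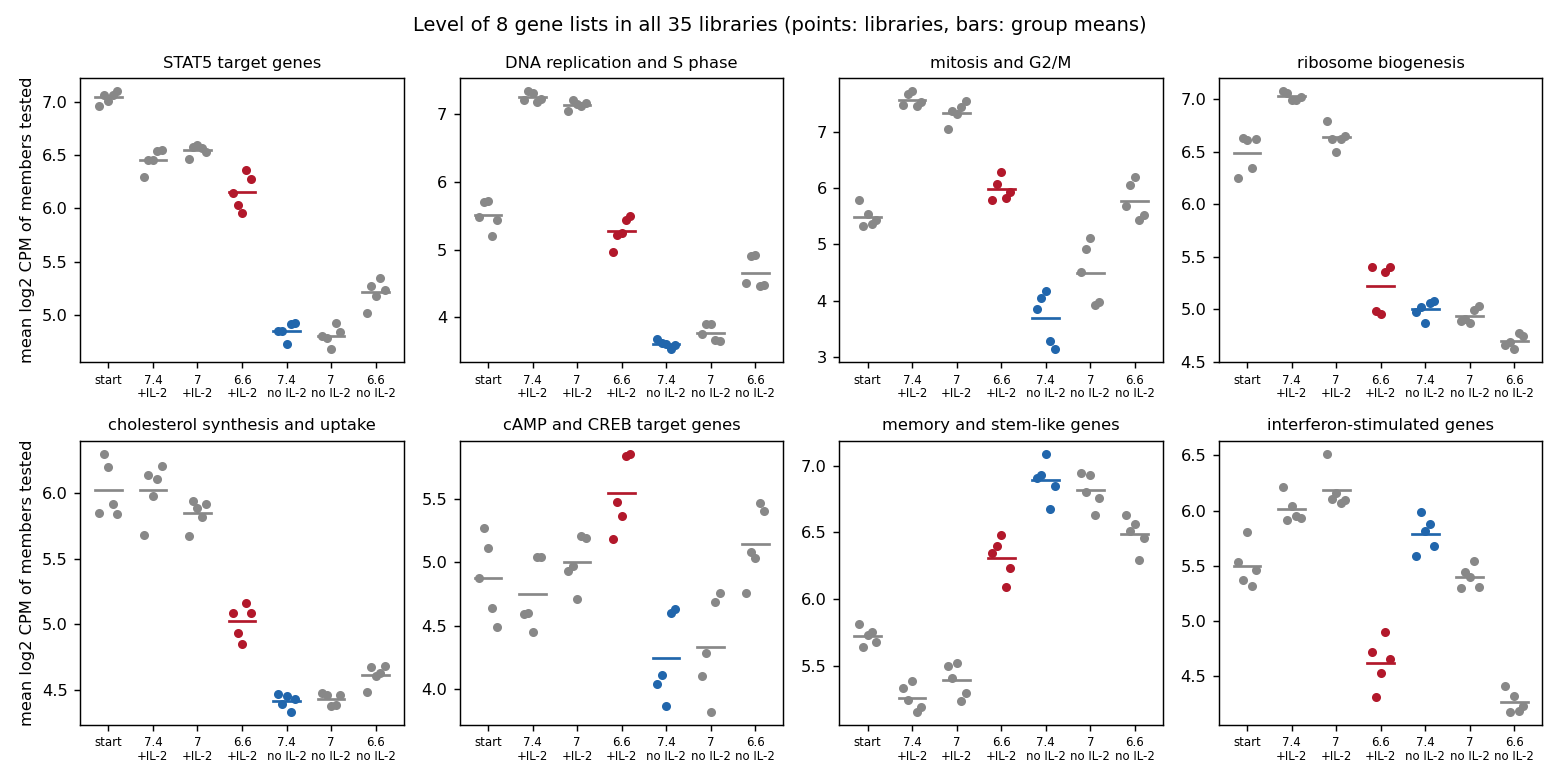
Mean log2 CPM of the tested members of 8 gene lists in all 35 libraries (vertical axis), by group, with points for libraries and bars for group means. Red is pH 6.6 with IL-2 and blue pH 7.4 without IL-2. On average, red lay between blue and the groups with IL-2 at pH 7.4 and pH 7 for STAT5 target, S phase and cholesterol genes. Red was above all other groups on average for cAMP and CREB target genes, and below blue for interferon-stimulated genes.

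Genes of acid sensing held both rises and falls. Counts of lists in this paragraph stand against 30.4% higher and 34.1% lower of all genes tested. Of 21 proton-sensing receptors and acid-base transporters, 5 rose, or 3 without replicate 4, and 9 fell (median log2 fold change -0.19). Gpr65, a proton receptor coupled to cAMP, was at 36.5, 25.5, 31.7, 29.1 and 30.1 CPM against 28.6, 28.3, 27.7, 34.4 and 25.9 CPM, with overlapping groups and a log2 fold change of 0.07 ± 0.09 (95% interval -0.11 to 0.26). For Gpr132 the log2 fold change was 0.01 ± 0.08 with an interval of -0.16 to 0.17. Slc16a3, the lactate exporter MCT4, was at 11.4, 13.1, 10.03, 18.3 and 16.4 CPM against 5.95, 5.89, 6.95, 6.09 and 6.29 CPM (log2 fold change 1.11 ± 0.39, adjusted p = 0.0151). The groups of Slc16a3 did not overlap, and without replicate 4 or 5 the adjusted p-value was 0.0861 or 0.0673. Txnip, which restrains glucose uptake, was at 2116, 2511, 2512, 2317 and 2302 CPM against 2137, 2732, 2540.3, 2822 and 2735 CPM, a log2 fold change of -0.14 ± 0.09 with an interval of -0.32 to 0.04. At pH 7 with IL-2 the mean of Txnip was 764 ± 69.5 CPM, below every library of both groups compared. Of 23 NRF2 and redox genes 8 rose and 6 fell, the falls being 3 without replicate 3, and Gclm, of glutathione synthesis, fell by 1.10 ± 0.09 (adjusted p = 2.76e-12).

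Further large differences were those of single genes, Tnfrsf9 and Bhlhe40 among them being members of the lists of inhibitory and costimulatory receptors and of effector transcription factors. Lif, which encodes leukemia inhibitory factor, was at 14.04, 11.6, 9.82, 48.9 and 52.6 CPM against 1.26, 0.393, 0.551, 2.59 and 2.996 CPM. Replicates 4 and 5 were the highest in both groups, and the log2 fold change was 4.03 ± 0.57 (adjusted p = 9.7e-07). Tnfrsf9, the costimulatory receptor 4-1BB, was at 188, 144, 118, 239.6 and 230.2 CPM against 17.7, 25.5, 14.3, 25.99 and 19.7 CPM (log2 fold change 3.14 ± 0.15, adjusted p = 1.43e-17). Tspoap1 was at 117, 74.5, 57.4, 140.1 and 128 CPM against 8.14, 7.304, 7.33, 6.93 and 8.18 CPM (log2 fold change 3.72 ± 0.27). Its mean was 103 ± 35.7 CPM, beside 71.8 ± 20.2 CPM in acid without cytokine and 40.8 ± 12.9 CPM in cytokine at pH 7. Neb, which encodes the giant muscle protein nebulin, rose by 3.59 ± 0.27, and Bhlhe40, a transcription factor of effector T cells, by 1.86 ± 0.13. Among the falls, Tbc1d4, a regulator of glucose transporter traffic, was at 46.3, 45.2, 52.8, 34.7 and 39.1 CPM against 274, 242, 267, 268 and 233 CPM (log2 fold change -2.56 ± 0.11, adjusted p = 9.61e-19). Actn1, an actin crosslinker, was at 17.7, 19.8, 21.5, 16.3 and 17.1 CPM against 131, 129.9, 188, 95.4 and 140.0 CPM (log2 fold change -2.87 ± 0.13, adjusted p = 1.95e-18). BE692007, Gucy2e, Arap3 and Cyp2s1 completed the 12 largest falls, with log2 fold changes of -2.94, -2.92, -2.68 and -2.49, in 5 of 5 pairs each. For Tbc1d4 the steps were -1.70 with acid and -4.78 with cytokine, and for Actn1 -1.88 and -4.02.

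Other lists held both rises and falls, and their counts stand against 30.4% higher and 34.1% lower of all genes tested, a background that many of them lay near. Of 15 effector transcription factors 9 rose and 2 fell. These counts were 6 and 1 without the replicate block, and 6 and 2 of 14 without replicate 1. Of 21 inhibitory and costimulatory receptors 10 rose and 8 fell, and of 18 genes of the T-cell receptor complex 5 rose and 9 fell. The rises among the inhibitory and costimulatory receptors were 6 without the replicate block. Of 17 HIF targets 7 rose and 2 fell, the rises being 4 without replicate 4 and the counts 11 and 4 of 16 with only the 2 groups fitted. Of 28 genes of the TCA cycle 17 rose and 5 fell. Of 21 enzymes of glutamine and related amino acids 11 rose and 4 fell, and of 11 iron genes 6 rose and 2 fell. Lysosome and autophagy genes fell at 19 of 44 and rose at 13. The 20 receptors of other cytokines had 9 rises and 9 falls, the 8 GIMAP GTPases 4 and 2, and the 8 glucose-sensing genes 3 and 1. Without replicate 1, 2, 3 or 4, or without the replicate block, 1 GIMAP gene was called lower. Exons overlapped a gene on the other strand over 24.7% of Gpr65, 20.8% of BE692007, 19.4% of Txnip, 18.7% of Xcl1 and 17.7% of Bid.

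Over all genes, the comparison shared more calls with the acid step than with the cytokine step, as counts and without a test of that difference. Of the 4197 genes that were higher, 3269 also rose in the acid step (77.9%) and 2616 in the cytokine step (62.3%). Read from the steps, these were 76.6% of the 4268 genes that rose with acid and 50.3% of the 5202 that rose with cytokine. Of the 4709 genes that were lower, 3909 fell in the acid step (83.0%, or 79.2% of the genes that fell there) and 3028 in the cytokine step (64.3%, or 55.4%). Calls of opposite sign were 152 of the 4197 in the acid step and 789 in the cytokine step, and 15 and 748 of the 4709. The 3 comparisons came from the same 5 sets of cultures and 1 model. Gzmb, Bcl2, Srm and Hk2 were higher in the comparison and rose by 6.49, 1.72, 4.65 and 4.80 in the cytokine step, beside 0.44, -0.35, -0.44 and -0.04 in the acid step.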

How the data were processed

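Messenger RNA of CD8+ T cells from 35 cultures, in 7 groups of 5, had been sequenced by the study from stranded libraries. Per the submitters' processing notes the tools were cutadapt 1.8, STAR 2.5.2b and HTSeq 0.6.1 on the GRCm38 build. The authors deposited raw counts per gene for each library, not normalized, with summary rows for reads without a gene. In the 10 libraries compared, reads matching no gene were 7.34 to 10.2% and reads matching several places 32.8 to 37.9% of all counted rows, and neither entered library sizes or tests. Whether counting used the strand, and the annotation release, are not given in the sources used here, so antisense and overlapping genes are less certain.

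Symbols, coordinates and the uniqueness of 50-base windows were taken from GENCODE release M21, and 48349 of 48709 identifiers had a symbol. Counts were fitted with edgeR 4.0.16 in R 4.3.3 (limma 3.58.1) with TMM factors, filterByExpr with a minimum count of 10 over all 7 groups, a robust quasi-likelihood fit of all 35 libraries blocked on replicate number, and Benjamini-Hochberg adjustment over 13819 genes at 0.05. CPM used TMM-scaled library sizes, and log2 CPM a prior count of 2. The fit was tested on simulated data. Tables and figures were made in Python 3.11.15. The labels number the cultures 1 to 5 in each group. After group means were removed, the 2 libraries of a number correlated at r = 0.181 to 0.496 over 13819 genes in each of the 5 pairs. The 20 pairs of different numbers had a median of -0.09 and a range of -0.243 to 0.229. The ranges overlapped, as replicates 2 and 4 (0.181 and 0.192) lay below the highest of these. Libraries of the same number were treated as paired. Nothing in the labels says whether the numbers are mice, so p-values measure the spread between these cultures. No libraries of 1 group agreed within sampling noise, as the smallest ratio of chi-square to its degrees of freedom was 7.19. That was the ratio of replicates 4 and 5 at pH 6.6 with IL-2. The other pairs of that group ran from 14.7 (replicates 2 and 3) to 49.9 (replicates 3 and 4). Its 5 cultures were thus not equally alike, and the reason was not tested.

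Named genes were the 12 largest rises and falls among genes that passed, whose mean log2 CPM reached 3, with 1 direction in 5 of 5 pairs and no predicted-gene name, then up to 2 rises and 2 falls per list by the same conditions, and a fixed set of genes known for IL-2 and acid. Of these, the text gives those it describes, and a few are not reported here. The comparison, the lists and the genes were chosen with earlier results of these data known, and the lists are no independent evidence. The alternatives tried were a looser and a stricter filter, DESeq2 1.42.0, RLE normalization, only the 2 groups compared, no replicate block, a minimum log2 fold change of 1 and leaving out each replicate. Promoters are RefSeq, GRCm38.p6.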

Additional observations from a re-analysis of the deposited data

Results flagged for a closer look

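In 242 groups of 5 values (102 genes in each of the 2 groups of libraries, and the 5 pair medians of each of 38 lists), 11 held 1 value that stood apart by Dixon's test at the critical value of 0.71, where chance gives about 1 in 20. Of these, 5 were replicate 1 at pH 6.6 with IL-2, the library with the lowest total count. There Bcl2 was at 789 CPM (452 to 529 in the other 4 libraries), Kntc1 at 27.9 CPM (44.9 to 50.7), E2f8 at 16.4 CPM (20.7 to 21.3), Xcl1 at 7.68 CPM (2.10 to 3.40) and Gclm at 36.2 CPM (21.3 to 24.9). Gclm was also high in replicate 1 at pH 7.4 without IL-2, at 86.1 CPM (46.0 to 50.5 in the others). Imp4 was at 60.3 CPM in replicate 5 at pH 7.4 without IL-2 (50.7 to 53.2 in the others), and Klf2 at 10.2 CPM in replicate 4 at pH 6.6 with IL-2 (16.6 to 18.04). Pair 4 stood apart for 3 lists. Its median log2 ratio was 0.00087 for the T-cell receptor complex and proximal kinases (-0.11 to -0.08 in the other pairs), 0.69 for D cyclins, CDK4, CDK6 and CDK inhibitors (0.30 to 0.41) and 0.82 for glycolysis (0.36 to 0.46). The cause was not tested for any of these. The calls of Bcl2, Kntc1, E2f8, Xcl1, Gclm and Imp4 held without any 1 replicate.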

How the results depend on the processing

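With a minimum log2 fold change of 1 the 8906 genes called became 2664 (4197 higher became 1089, 4709 lower became 1575), the 9205 of the acid step became 2711 and the 10667 of the cytokine step 4920, since fewer genes meet the added condition. Without the replicate block 8304 genes were called, 3925 higher and 4379 lower, of which 8296 were called with the pairing too, and the steps had 8621 and 10267. Leaving out 1 replicate gave 7911 to 8574 genes (3840 to 4151 higher, 4071 to 4465 lower), and 8285 to 9018 and 10169 to 10506 in the steps. RLE normalization and DESeq2 moved the median of all genes by 0.05 on the log2 scale, and higher genes were 47.1% of those called as reported, 52.1% with RLE and 52.3% with DESeq2. No gene was called with opposite signs. Of 102 genes, 92 kept their direction and side of the threshold under all 11 alternatives. Those that crossed it included Pim2, Il2rg, Pde3b, Rgs16, Ifng and Slc16a3, which lost the call under at least 1, and S1pr1, which gained it (adjusted p = 0.0481 with only the 2 groups fitted, edgeR). Without the block Il2rg, Rgs16 and Ifng were not called (adjusted p = 0.0646, 0.0599 and 0.0754), and no other described gene changed its call. Signs changed for Il2rb without replicate 3 (0.0225, the others down to -0.127). They also changed for Gpr132 with the strict filter (-0.00264) and without replicate 4 (-0.0148, the others up to 0.0554), none of them called. The median of other cytokine receptors changed sign with the loose filter (0.0884, from -0.05), beyond the spread between pairs. Within that spread it also did so with RLE (0.0057), DESeq2 (0.0057) and without replicate 3 (0.0255). Within it too, medians changed sign for amino acid transporters without replicate 2 (-0.015, from 0.10) and glucose-sensing genes with the strict filter (-0.0011, from 0.07). List medians moved by less than the spread between pairs in 397 of 418 values. Except where a stricter rule or fewer samples shows it, the cause was not tested. Total counts set the precision of genes near 1 CPM, such as Isg15 and Nr4a1.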
